A study of Mus musculus with 6 samples.

Results

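The receptors described here are 8 members of the TNF receptor superfamily, grouped as costimulators of T cells. They were measured in CD4+ T cells lacking the spliceosomal protein CD2BP2/U5-52K. They were chosen by symbol as Tnfrsf4 (OX40), Tnfrsf18 (GITR), Tnfrsf9 (4-1BB), Tnfrsf8 (CD30), Cd27, Tnfrsf14 (HVEM), Tnfrsf25 (DR3) and Tnfrsf26. All 8 were found in the expression table of 56246 genes, and each had at least 1 event in the splicing tables. RNA from sorted cells of spleen and lymph nodes was sequenced in 3 cKO and 3 Control libraries. The cKO libraries were of the genotype U5-52K f/f CD4-Cre tg. In the Control group, the genotype of CTRL_1.2 and of CTRL_3.4 was U5-52K wt/f CD4-Cre tg, whereas CTRL_5.6 was U5-52K f/f without Cre. All 6 libraries thus came from mice with a floxed allele, and the Cre transgene was shared by every cKO library but not by every Control library. The methods give male mice of 8 to 12 weeks for the removal of organs. CD4-Cre is active from the double-positive stage in the thymus, so that deletion precedes the life of the cell in the periphery. Values of single libraries are given for cKO in the order KO_7.8, then KO_9.10, then KO_11.12, and for Control in the order CTRL_1.2, then CTRL_3.4, then CTRL_5.6.

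TNF receptor costimulators amplify the response of a T cell that has met antigen. Their trimeric ligands, shown by antigen presenting cells and in part by T cells themselves, cluster the receptors, whose cytoplasmic tails recruit TRAF adaptors and activate NF-kB, which favours survival, division and memory. Cd27 and Tnfrsf14 are found on naive T cells, Tnfrsf9 and Tnfrsf8 are induced by activation, and Tnfrsf4, Tnfrsf18 and Tnfrsf25 are high on mouse regulatory T cells already at rest.

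Reads assigned to genes ranged from 69981159 to 82286366 in cKO libraries and from 56995121 to 75606222 in Control libraries. The targeted gene Cd2bp2 had 884, 874 and 738 normalized counts (reads of a gene divided by a size factor of the library) in cKO and 2624, 2602 and 2612 in Control. KO_7.8 and CTRL_5.6 stood apart from the other libraries of their condition, with a chi-square per gene of 204 to 217 for cKO pairs that held KO_7.8 and 90.8 to 120 for Control pairs that held CTRL_5.6, whereas the remaining pair gave 28.6 in cKO and 18.0 in Control. The summed normalized count of 12 myeloid genes was 65343 in KO_7.8 and 22465 to 33028 in the other 5 libraries, and that of 12 cell cycle genes was 16978 in KO_7.8 and 4388 to 6175 in the others. The 9 genes of CD4+ T cells summed to between 550660 and 584968 in cKO and between 567002 and 623135 in Control. Whether a library holds cells of 1 mouse or of several is not stated by the labels. The p-values below rest on the spread between these libraries, not on a known number of mice. In the main fits the spread of a gene or event was moderated by that of others.

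No receptor passed the test for a difference in level between cKO and Control. With limma on log2(normalized count + 1) over 11001 genes, 0 of the 8 receptors had an adjusted p under 0.05, against 0.973% of all tested genes. With edgeR the count was 0, against 1.02% of all tested genes, and with DESeq2 it was 1, Cd27, against 8.42% of all tested genes. An unadjusted p under 0.05 was reached by 1 of 8 with limma, 1 with edgeR and 2 with DESeq2. Over all 11001 tested genes it was reached by 1836 (16.7%) with limma, 1958 with edgeR and 2264 with DESeq2. The median log2 fold change of the 8 receptors was 0.33, with 5 positive, and that of all tested genes was 0.01. The libraries of the conditions did not overlap for Tnfrsf25, higher in cKO, and for Cd27, lower in cKO. This is 2 of 8 receptors, near the 24.1% of all tested genes (12.6% higher and 11.5% lower). With 3 libraries against 3, the exact two-sided permutation test of a single gene cannot go below p = 0.1, which was the value of both genes.

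**Figure D1:**
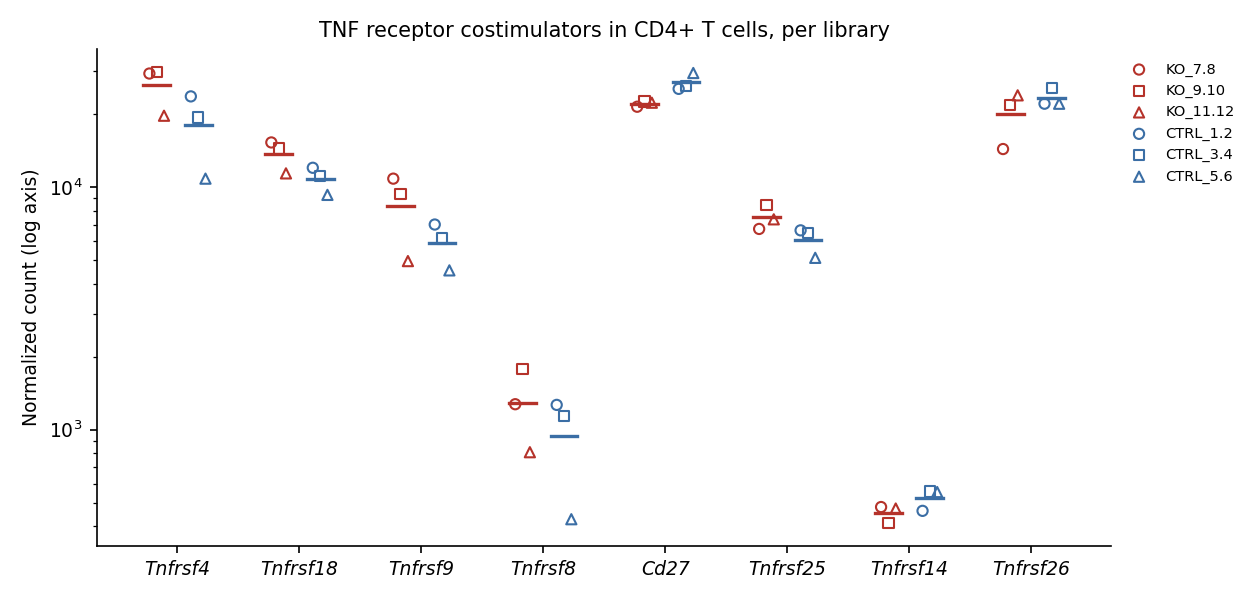
Normalized count (log axis) of the 8 receptors in each of the 6 libraries, cKO in red on the left and Control in blue on the right, with a bar at each mean. Cd27 lay between 21419 and 22496 in cKO and between 25375 and 29495 in Control. Tnfrsf4, Tnfrsf18, Tnfrsf9 and Tnfrsf8 overlapped between conditions and were lowest in CTRL_5.6. Tnfrsf25 did not overlap and was also lowest in CTRL_5.6, at 5108.

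Per kilobase of annotated exon, Tnfrsf4 had the highest mean level, 19253 normalized counts per kilobase in cKO and 13139 in Control. Cd27 followed with 9474 in cKO and 11590 in Control, and Tnfrsf18 with 8983 in cKO and 7077 in Control. Tnfrsf26 had 6206 per kilobase in cKO and 7221 in Control. With the 6 libraries of both conditions pooled, the range of each of these receptors overlapped that of its neighbour in this order. Tnfrsf4 overlapped Cd27 only through CTRL_5.6, its lowest library (7932 per kilobase). The lowest Cd27 library (9200 per kilobase) lay above the highest Tnfrsf26 library (7967). Differences between receptors within a library were not tested. Tnfrsf25 (3294 per kilobase in cKO, 2664 in Control) and Tnfrsf9 (3083 in cKO, 2164 in Control) overlapped each other and stayed below Tnfrsf26, whose lowest library had 4456 per kilobase. Tnfrsf8 (372 per kilobase in cKO, 273 in Control) and Tnfrsf14 (317 in cKO, 365 in Control) overlapped each other and did not exceed 514 per kilobase in any library. Part of the exons overlaps another gene in Tnfrsf18 (414 bases, antisense Gm16008), Cd27 (129 bases, Vamp1 and Mir8113) and Tnfrsf26 (107 bases, antisense E230032D23Rik), and reads of such pairs cannot be told apart without strand.

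In the GRCm38 assembly, 6 of the receptor genes lie on chromosome 4 within 10761759 bases. Tnfrsf4 (chr4:156013843-156016612, plus strand) and Tnfrsf18 (chr4:156026164-156028895, plus strand) lie 9551 bases apart. Cd27 lies at chr6:125232622-125237010 on the minus strand and Tnfrsf26 at chr7:143607659-143628722 on the minus strand.

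Among the receptors that regulatory T cells carry at rest, Tnfrsf4, which sustains effector and memory cells, had 29348, 29828 and 19666 normalized counts in cKO and 23626, 19351 and 10828 in Control. KO_11.12 lay below CTRL_1.2, so that the conditions overlapped, and the log2 fold change was 0.60 ± 0.30 (SE, n = 3 each, limma adjusted p = 0.38). Tnfrsf18, whose engagement makes effector cells less sensitive to suppression, had 15263, 14424 and 11382 in cKO and 12002, 11072 and 9281 in Control. Again only KO_11.12 fell within the Control range, and the log2 fold change was 0.34 ± 0.15 (limma adjusted p = 0.31).

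Tnfrsf25, the receptor of the cytokine TL1A and a carrier of a death domain, had 6719, 8421 and 7361 normalized counts in cKO and 6629, 6461 and 5108 in Control. Every cKO library lay above every Control library, KO_7.8 by a small margin over CTRL_1.2. The log2 fold change was 0.31 ± 0.14 (limma adjusted p = 0.32), and after quantile normalization the conditions overlapped.

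Of the receptors induced by activation, Tnfrsf9, which supports expansion and survival, had 10827, 9394 and 4953 normalized counts in cKO and 7006, 6132 and 4535 in Control. KO_11.12 lay among the Control libraries, and the log2 fold change was 0.46 ± 0.31 (limma adjusted p = 0.51). Tnfrsf8, a marker of activated lymphocytes, had 1274, 1779 and 808 in cKO and 1266, 1136 and 428 in Control. KO_11.12 lay within the Control range, with a log2 fold change of 0.52 ± 0.46 (limma adjusted p = 0.63).

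Of the receptors of naive cells, Cd27, which supports the survival of primed T cells and is lost on terminal differentiation, had 21419, 22496 and 22252 normalized counts in cKO and 25375, 26077 and 29495 in Control. All cKO libraries lay below all Control libraries. The log2 fold change was -0.29 ± 0.09 (limma adjusted p = 0.19), and over the alternatives the adjusted p ran from 0.028 with DESeq2 to 0.37 with limma when KO_11.12 was left out. Tnfrsf14, which binds stimulating as well as inhibitory partners, had 480, 412 and 474 in cKO and 463, 557 and 554 in Control. The conditions overlapped through CTRL_1.2, and the log2 fold change was -0.20 ± 0.15 (limma adjusted p = 0.56).

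Tnfrsf26, a mouse receptor encoded beside the TRAIL decoy receptor genes Tnfrsf22 and Tnfrsf23, had 14338, 21713 and 23862 normalized counts in cKO and 22041, 25638 and 22035 in Control. KO_7.8 was the low library, and the log2 fold change was -0.25 ± 0.19 (limma adjusted p = 0.58).

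The values of several receptors rested on the libraries that stood apart. Without KO_7.8 and CTRL_5.6 together, an alternative chosen after seeing the data that leaves 2 libraries per condition, the log2 fold change was 0.18 for Tnfrsf4, 0.06 for Tnfrsf9 and -0.00023 for Tnfrsf8. It was 0.15 for Tnfrsf18, 0.27 for Tnfrsf25, -0.20 for Cd27, -0.20 for Tnfrsf14 and -0.06 for Tnfrsf26, and the median of the 8 was 0.03. The smallest adjusted p in limma was then 0.084, that of Tnfrsf25. Without CTRL_5.6 alone, when every library compared carried the Cre, the log2 fold change was 0.27 for Tnfrsf4, 0.03 for Tnfrsf8 and -0.22 for Cd27.

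Genes of regulatory T cells were low in the same Control library as Tnfrsf4, Tnfrsf8, Tnfrsf9, Tnfrsf18 and Tnfrsf25. Of 12 such genes, 10 had their lowest level of all libraries in CTRL_5.6, and none of the 12 was at 0 in any library. Their summed normalized count was 122991, 143054 and 105051 in cKO and 130938, 122933 and 72338 in Control. Foxp3, the defining transcription factor, had 6820, 7666 and 5489 in cKO and 7038, 6559 and 3605 in Control, with overlap and a log2 fold change of 0.26 ± 0.27 (limma adjusted p = 0.69). Per count of Foxp3, a ratio formed after the values were seen and not tested, Tnfrsf4 stood at 4.30, 3.89 and 3.58 in cKO and at 3.36, 2.95 and 3.003 in Control. These ratios did not overlap, whereas those of Tnfrsf18 did, with 2.24, 1.88 and 2.07 in cKO and 1.71, 1.69 and 2.57 in Control. Tnfrsf4 was the only one of the 8 receptors whose ratios did not overlap. The share of all genes with such ratios was not determined. The summed count of 14 genes of activated and memory T cells was 172638 to 214906 in cKO and 111786 to 169222 in Control, and that of 10 naive T cell genes was 364098 to 442233 in cKO and 375081 to 509078 in Control, lowest and highest in CTRL_5.6. In bulk RNA, fewer cells of a type and less RNA per cell cannot be told apart. The part of cell composition in the receptor levels was not tested.

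**Figure D2:**
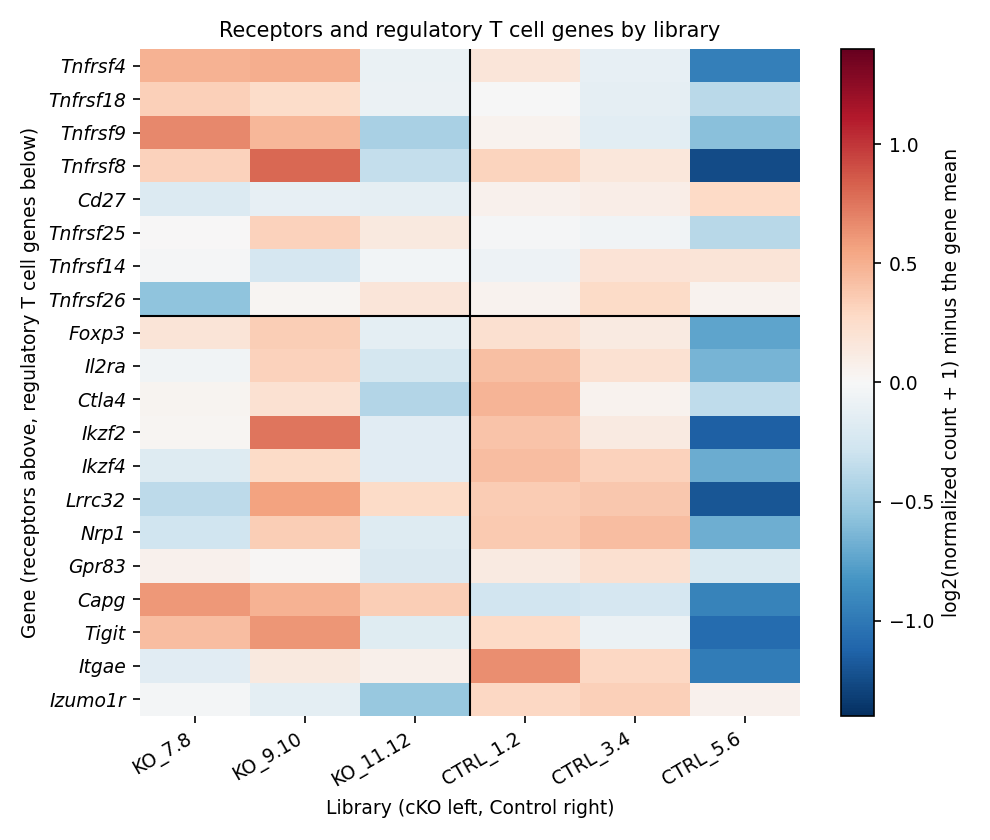
Colour gives log2(normalized count + 1) of a gene in a library minus the mean of that gene over the 6 libraries, with cKO libraries left of the vertical line, Control libraries right of it, the 8 receptors above the horizontal line and the 12 regulatory T cell genes below it. In CTRL_5.6, where Foxp3 had 3605 normalized counts, 10 of the 12 regulatory T cell genes had their lowest level. So had Tnfrsf4, Tnfrsf18, Tnfrsf9, Tnfrsf8 and Tnfrsf25.

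The ligand genes of 2 receptors were higher in cKO. Of 10 ligands and binding partners, 7 passed the filter on the mean and 2 rose, Tnfsf4 and Tnfsf8, where 0.673% of all tested genes passed as higher and 0.300% as lower. Tnfsf4 encodes OX40L, the ligand of Tnfrsf4, best known from antigen presenting cells. It had 1975, 1492 and 1710 normalized counts in cKO and 95.9, 79.8 and 96.9 in Control. No library came near the other condition, and the log2 fold change was 4.23 ± 0.17 (limma adjusted p = 0.00031). Tnfsf8 encodes CD30L, the ligand of Tnfrsf8, which activated T cells also express. It had 15649, 14863 and 14643 in cKO and 6188, 5426 and 5264 in Control, a log2 fold change of 1.42 ± 0.09 (limma adjusted p = 0.0014). Both passed in every alternative that tested them. Of the dendritic cell genes, 1 passed. Zbtb46, a transcription factor of classical dendritic cells, had 1585, 1333 and 1316 in cKO and 725, 744 and 639 in Control (log2 fold change 1.003 ± 0.13, limma adjusted p = 0.023). Itgax (log2 fold change 1.36, limma adjusted p = 0.17) and Xcr1 (0.83, limma adjusted p = 0.19) did not overlap between conditions either, whereas Flt3 overlapped (1.17, limma adjusted p = 0.35). All 6 tested genes of this list had a positive log2 fold change, as had 5695 of all 11001 tested genes. The smallest were those of Siglech (0.07) and Bst2 (0.05). Without KO_7.8, 4 of the 6 were positive. The summed count of the 7 dendritic cell genes was 7678 to 15760 in cKO and 5867 to 8509 in Control, with overlap, and that of 9 B cell genes was 4737 to 8999 in cKO and 10325 to 14020 in Control. The part of these cells in the ligand levels was not tested.

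The other ligands did not pass. Tnfsf9, the ligand of Tnfrsf9, had 304.8, 213 and 263.6 normalized counts in cKO and 201.5, 182.1 and 135.9 in Control, without overlap, and a log2 fold change of 0.59 (limma adjusted p = 0.29). Tnfsf14, a ligand of Tnfrsf14 known as LIGHT, had 1273, 1274 and 1274 in cKO and 1212, 913 and 823 in Control, also without overlap, and a log2 fold change of 0.39 (limma adjusted p = 0.28). The inhibitory Tnfrsf14 partner Btla was at 7567, 6925 and 6954 in cKO and 8183, 7752 and 7746 in Control, with a log2 fold change of -0.14 (limma adjusted p = 0.43). Cd160, a further partner of Tnfrsf14, overlapped between conditions, with a log2 fold change of 0.21 (limma adjusted p = 0.68). Below the filter, Cd70, the ligand of Cd27, had 47.3, 59.8 and 33.7 in cKO and 20.5, 4.69 and 7.55 in Control. Tnfsf15, which encodes the Tnfrsf25 ligand TL1A, had 43.1, 71.6 and 49.3 in cKO and 31.2, 18.8 and 0 in Control, and Tnfsf18, the ligand of Tnfrsf18, did not exceed 7.55 in any library.

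**Figure D3:**
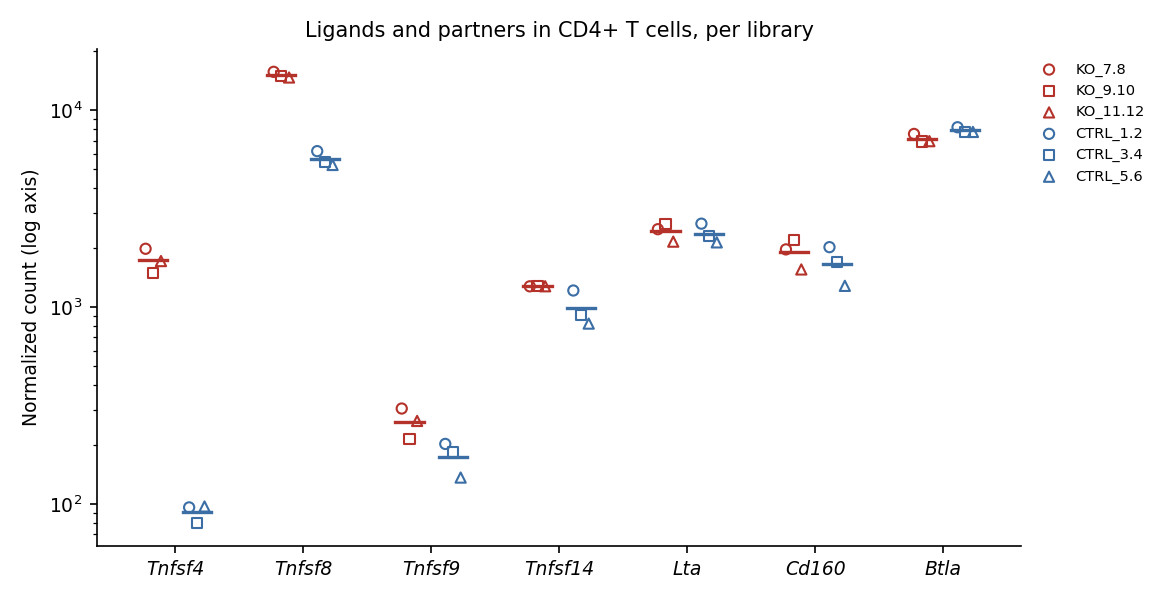
Normalized count (log axis) of the 7 tested ligands and partners in each of the 6 libraries, cKO in red on the left and Control in blue on the right, with a bar at each mean. Tnfsf4 lay between 1492 and 1975 in cKO and between 79.8 and 96.9 in Control, and Tnfsf8 between 14643 and 15649 in cKO and between 5264 and 6188 in Control.

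Of 29 genes of the TRAF and NF-kB pathway downstream of the receptors, 0 passed in limma, 0 in edgeR and 0 in DESeq2. Among all tested genes, 0.973%, 1.02% and 8.42% passed in these tools. An unadjusted p under 0.05 was reached by 3, 3 and 4 of the 29 genes in limma, edgeR and DESeq2, and by 1836, 1958 and 2264 of all 11001 tested genes. Their median log2 fold change was 0.15. The largest values were those of Bcl2l1, which encodes the survival factor Bcl-xL (log2 fold change 0.72, limma adjusted p = 0.21), the atypical inhibitor Bcl3 (0.55, limma adjusted p = 0.38), the NF-kB subunit gene Nfkb1 (0.50, limma adjusted p = 0.27) and the survival gene Bcl2a1d (0.41, limma adjusted p = 0.55). Bcl2a1d had 4777 normalized counts in KO_7.8 and 2060 to 2247 in the other libraries. Without KO_7.8 and CTRL_5.6 together, 5 genes passed in limma, with Bcl2l1, Bcl3, Ripk1 and Tnfaip3 higher and Map3k14 lower in cKO. This was 17.2% of the list, near the 13.5% of all genes that passed in the same fit.

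Of 18 other TNF receptor genes, 13 were tested and 2 rose, where 0.673% of all tested genes passed as higher and 0.300% as lower. Fas, the death receptor, had 6465, 5713 and 5757 normalized counts in cKO and 3812, 3612 and 3774 in Control (log2 fold change 0.68 ± 0.09, limma adjusted p = 0.023). Tnfrsf10b, the TRAIL receptor, had 608, 750 and 729 in cKO and 329, 364 and 288 in Control (log2 fold change 1.09 ± 0.16, limma adjusted p = 0.038). Neither gene overlapped between conditions. When 1 library other than KO_7.8 was left out, the adjusted p ran from 0.081 to 0.15 for Fas and from 0.099 to 0.20 for Tnfrsf10b.

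In the splicing tables the 8 receptors had 62 events, of which 60 averaged at least 20 reads in cKO as well as in Control and were tested. These were 40 skipped exons, 15 exon pairs classed by the tables as mutually exclusive, 3 alternative 3′ splice sites, 1 alternative 5′ splice site and 1 retained intron. Inclusion is the percentage that the form with the exon makes up of the forms an event compares, from reads scaled by the effective length of each form. It is not the percentage of all transcripts of the gene, and the same exon can differ in inclusion between events. A quasi-binomial test compared the conditions. An event was called at a false discovery rate (FDR) under 0.01 and a difference of at least 10 points. Of the 40 skipped exons 2 were called, Tnfrsf9 exon 7 and Tnfrsf25 exon 5, both lower in cKO, where 0.495% of all tested skipped exons were called. Of the other 20 events 0 were called and 2 had an unadjusted p under 0.05, and the calls over all genes were 0.250% of mutually exclusive exons, 0.584% of alternative 3′ and 1.08% of alternative 5′ splice sites and 0.181% of retained introns. Among the skipped exons of the receptors, 3 had an FDR under 0.01 at any size (1.09% over all genes), 5 an FDR under 0.05 (1.79%), and 6 did not overlap between conditions (10.8%). With the own dispersion of each event in place of a moderated one, an alternative chosen after seeing the data, neither exon was called (FDR = 0.55 for both), and 0 events were called over all genes. The tables give 3 values per condition without naming the library of each.

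Tnfrsf9 exon 7 (chr4:150935422-150935556, plus strand, GRCm38) has 135 bases, all coding in the 8-exon transcript Tnfrsf9-201, and lies between introns of 1010 and 9216 bases. It is shown because it was called. In the encoded protein of 256 residues, the window of 19 residues with the highest mean Kyte-Doolittle hydropathy beyond the first 30 residues lies in this exon, with 2.76 against at most 1.07 elsewhere, and hydrophobic stretches of this kind are typical of membrane-spanning segments. The codons of that window are in capitals.
Tnfrsf9 exon 7: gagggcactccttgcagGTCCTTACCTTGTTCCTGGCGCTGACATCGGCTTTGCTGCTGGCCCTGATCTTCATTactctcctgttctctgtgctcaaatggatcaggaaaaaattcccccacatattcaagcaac

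Inclusion of Tnfrsf9 exon 7 was 36.9, 44.1 and 46.1% in cKO and 57.9, 55.5 and 50.3% in Control. The highest cKO value lay below the lowest Control value, with means of 42.4% ± 4.8 in cKO and 54.6% ± 3.9 in Control (SD, n = 3 each). The difference was -12.2 points (quasi-binomial test with dispersions moderated by limma, FDR = 5.2e-05). Inclusion rested on 609, 902 and 412 reads in cKO and 653, 593 and 332 in Control, and skipping on 546, 599 and 253 reads in cKO and 249, 250 and 172 in Control. A transcript without the exon keeps its frame and its end and encodes 211 residues, and the annotated transcripts Tnfrsf9-202 and Tnfrsf9-204 also lack it. When the first cKO value was left out the difference was -9.45 points, under the size of a call.

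Tnfrsf25 exon 5 (chr4:152117640-152117694, plus strand) has 55 bases and exon 6 (chr4:152118247-152118302) has 56 bases, so that neither alone is a multiple of 3. Each holds 3 cysteine codons of the extracellular part. The junctions that leave exon 4 are shown because the called event sets those into exon 5 and exon 7 against each other. The junction from exon 5 to exon 7 is shown because it separates the form without exon 6 from the full form, which share the junction from exon 4 to exon 5. The bases after the junction are in capitals.
Tnfrsf25 exon 4 to exon 5: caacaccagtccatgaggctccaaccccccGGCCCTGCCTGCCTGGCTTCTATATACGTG
Tnfrsf25 exon 4 to exon 6: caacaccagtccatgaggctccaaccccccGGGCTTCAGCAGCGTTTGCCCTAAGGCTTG
Tnfrsf25 exon 4 to exon 7: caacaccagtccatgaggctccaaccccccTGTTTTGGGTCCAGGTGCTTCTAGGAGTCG
Tnfrsf25 exon 5 to exon 7: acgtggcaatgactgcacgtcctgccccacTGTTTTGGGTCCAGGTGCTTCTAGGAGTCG

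Set against the junction from exon 4 to exon 7, inclusion of Tnfrsf25 exon 5 was 28.9, 25.6 and 28.1% in cKO and 40.2, 35.6 and 44.8% in Control. The conditions did not overlap, with means of 27.5% ± 1.7 in cKO and 40.2% ± 4.6 in Control (SD, n = 3 each) and a difference of -12.7 points (quasi-binomial test, FDR = 0.0054). Skipping reads numbered 277, 434 and 377 in cKO and 187, 240 and 108 in Control. Exon 6, set against the same junction and therefore sharing these skipping reads, had 16.4% ± 2.5 in cKO and 22.9% ± 4.9 in Control, with overlap (difference -6.48 points, FDR = 0.51). Set against the junction from exon 4 to exon 6, exon 5 had 92.3% ± 0.24 in cKO and 93.8% ± 0.72 in Control (FDR = 0.69). The junction from exon 5 to exon 7 had 68, 60 and 69 reads in cKO and 40, 55 and 55 in Control, and inclusion of exon 6 against it was 76.9% ± 5.4 in cKO and 76.8% ± 7.1 in Control (FDR = 0.99). Leaving out exons 5 and 6 together, both of which the annotated Tnfrsf25-202 lacks, keeps the frame and gives 374 in place of 411 residues. Leaving out exon 5 alone gives a stop after 184 residues in exon 7, 297 bases before the last junction. In the 6 fits that left out 1 value, the difference for exon 5 stayed between -14.97 and -10.39 points, and the call was lost in 4 of them through the FDR, which reached up to 0.059.

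Cd27 exon 3 (chr6:125234515-125234694, minus strand) has 180 bases and keeps the frame. It is shown because it had the smallest FDR of all receptor events, with the 6 in-frame cysteine codons in capitals, cysteines being the hallmark of the extracellular repeats of this family.
Cd27 exon 3: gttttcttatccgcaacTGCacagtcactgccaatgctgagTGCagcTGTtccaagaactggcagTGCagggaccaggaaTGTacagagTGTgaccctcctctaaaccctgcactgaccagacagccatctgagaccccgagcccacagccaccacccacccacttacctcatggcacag

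Inclusion of Cd27 exon 3 was 95.8, 94.6 and 95.8% in cKO and 89.6, 90.9 and 90.6% in Control. All cKO values lay above all Control values, with means of 95.4% ± 0.68 in cKO and 90.4% ± 0.70 in Control (SD, n = 3 each). The difference of 5.03 points (quasi-binomial test, FDR = 1.1e-07) was below the size of a call. Inclusion rested on 3689, 5038 and 5097 reads in cKO and 4083, 5109 and 4185 in Control, and the junction from exon 2 to exon 4 on 73, 130 and 102 reads in cKO and 215, 231 and 197 in Control. Without exon 3 the transcript encodes 190 in place of 250 residues, and the annotated Cd27-202 lacks this exon. The difference was seen for the junction from exon 2 to exon 4 only. Set against the junction from exon 1 to exon 4, the same exon 3 had 97.8% ± 0.34 in cKO and 97.5% ± 0.76 in Control, with overlap (difference 0.34 points, FDR = 0.77). Exon 2 of Cd27, with 132 bases, had 95.0% ± 0.59 in cKO and 96.5% ± 0.41 in Control when set against the junction from exon 1 to exon 3, without overlap but with an FDR of 0.18. Set against the junction from exon 1 to exon 4, exon 2 had 98.09% in cKO and 98.08% in Control, with overlap (difference 0.01 points).

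Smaller differences were seen in exon 9 of Tnfrsf25 and exon 7 of Tnfrsf26. Tnfrsf25 exon 9, of 184 bases, was included at 95.4% ± 0.81 in cKO and 98.4% ± 0.64 in Control, without overlap (difference -3.02 points, quasi-binomial FDR = 0.036). With 1 value left out, its difference was -3.38 to -2.56 points and its FDR up to 0.30. Tnfrsf26 exon 7, of 18 bases, was included at 96.0% ± 1.7 in cKO and 97.9% ± 1.1 in Control, with overlap (difference -1.93 points, quasi-binomial FDR = 0.049). This difference depended on single values and ran from -2.58 to -0.94 points over the 6 fits. It was -0.94 points (FDR = 0.68) without the second cKO value and -1.31 points (FDR = 0.81) without the second Control value. Exons 6 and 5 of Tnfrsf26 were also classed as a mutually exclusive pair. The form with exon 5 had 94.5% ± 2.3 in cKO and 96.6% ± 1.9 in Control, with overlap (difference -2.09 points, quasi-binomial FDR = 0.16).

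The remaining receptors gave no event with an FDR under 0.05. Tnfrsf4 had 16 tested events, with differences from -0.36 to 2.22 points and 984 to 41680 reads per event. The 2.22 points were those of exons 4 and 5, classed as mutually exclusive. As skipped exons, each of these was included at 99.99% in cKO and 100% in Control. Tnfrsf18 had 5 events, with differences from 0.03 to 0.76 points. Tnfrsf8 had 5 events of 196 to 620 reads and differences from -4.77 to 3.53 points, and Tnfrsf14 had 1 event of 168 reads, with at most 1 skipping read behind any of its values. The event with most reads had an inclusion of 99.99% in cKO and 100% in Control for Tnfrsf4 exon 5. It was 99.6% in cKO and 99.4% in Control for Tnfrsf18 exon 4, and 98.9% in cKO and 99.4% in Control for Tnfrsf8 exon 12. Of the receptors described above, Cd27 exon 5 and Tnfrsf26 exon 4 had most reads of their gene. Each was included at 100% in cKO and 99.97% in Control.

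**Figure D4:**
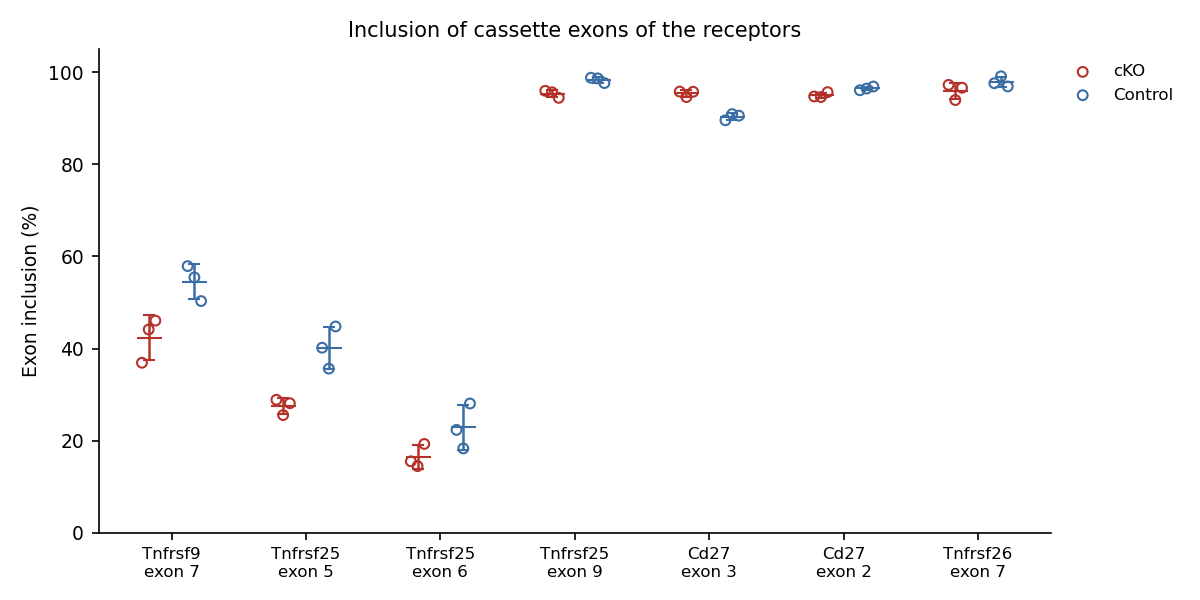
Exon inclusion (%) of 7 receptor exons, with open circles for the 3 values of each condition and bars for mean and SD, cKO in red on the left and Control in blue on the right. Tnfrsf9 exon 7 averaged 42.4% in cKO and 54.6% in Control. Tnfrsf25 exon 5, set against the junction from exon 4 to exon 7, averaged 27.5% in cKO and 40.2% in Control. Cd27 exon 3, set against the junction from exon 2 to exon 4, averaged 95.4% in cKO and 90.4% in Control.

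The likeness of expression profiles was described by the root mean square difference of centred log2 values over the 6 libraries, which all genes share. The tested genes closest to Tnfrsf4 were Nr4a3 (difference 0.042), Alox8 (0.086) and Gstt3 (0.089), where the spread of Tnfrsf4 itself was 0.49. Closest to Tnfrsf9 were Cd83 (0.11), Ebi3 (0.13) and Rad51b (0.13), with a spread of 0.46 for Tnfrsf9. Closest to Tnfrsf18 were Xxylt1 (0.031), Fam114a1 (0.042) and Cntln (0.054), and closest to Cd27 were Wdcp (0.029), Chil5 (0.034) and Cflar (0.038). Among the receptors the closest pair was Cd27 and Tnfrsf14 (0.12), then Tnfrsf18 and Tnfrsf25 (0.17), and the farthest was Tnfrsf8 and Cd27 (0.77). The difference is not scaled by spread, so that genes of small spread lie close. The spread was 0.16 for Cd27, 0.15 for Tnfrsf14, 0.24 for Tnfrsf18, 0.22 for Tnfrsf25 and 0.65 for Tnfrsf8. Tnfrsf4 and Tnfrsf9, of larger spread than the closest pair, lay 0.23 apart.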

How the data were processed

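The study trimmed paired reads with cutadapt, mapped them with STAR to GRCm38 and assigned them to genes with featureCounts. The deposited expression signal is each count divided by the DESeq2 size factor of its library, and all of these values returned to whole reads (within 0.01) when the factor was undone. The deposited rMATS tables hold inclusion and skipping read counts, with Control as the first and cKO as the second sample by the methods' definition of the inclusion difference. Fold changes and p-values deposited by the authors were not used.

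The 11001 genes that carried a symbol and averaged 100 or more in cKO or Control entered limma 3.58.1 (R 4.3.3, variance trend, Benjamini-Hochberg adjustment). The scale log2(normalized count + 1) understates changes of low genes. Whole reads entered edgeR 4.0.16 and DESeq2 1.42.0. Splicing events were tested per class by a quasi-binomial model, with dispersions moderated across events whose rarer form averaged at least 5 reads and with a floor of 1. Both procedures were run on simulated data with planted changes. The outcome is not given here, and no statement above rests on it. The simulated splicing counts had a common dispersion for all events, unlike the measured ones. Exons and sequences were taken from GENCODE M21 (GRCm38).

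The receptors and gene lists were chosen with earlier results of these data known. Named were all receptors, listed ligand and pathway genes that passed and up to 4 further ones by size, up to 4 genes of other lists by p, the 3 closest profiles, called events, the best covered event of a receptor and up to 4 further events by p. Foxp3, the ligands below the filter, the genes passing without KO_7.8 and CTRL_5.6 and Tnfrsf25 exon 6 were added after their values were seen. Alternatives were other tools, pseudocounts, filters, scalings, dispersion priors and left-out libraries.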

Additional observations from a re-analysis of the deposited data

How the results depend on the processing

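No paired analysis was possible because the library names share no replicate numbers between cKO and Control. With DESeq2, 1 receptor passed (Cd27), and 926 genes passed in all (488 higher, 438 lower) in place of 107 with limma, 236 in place of 62 when a log2 fold change beyond 1 was also asked. A mean of 100 in both conditions removed Tnfsf4 from the test and left 1 ligand. After quantile normalization 1 receptor was free of overlap, where 25.4% of all tested genes were. With 1 library left out, between 26 and 128 genes passed, between 26 and 70 with the fold, and between 2 and 7 receptors were free of overlap, 7 without KO_11.12 and 5 without CTRL_1.2, where 30.2% and 28.8% of all tested genes were. The log2 fold change of Tnfrsf8 ran from 0.03 without CTRL_5.6 to 0.82 without KO_11.12. Without KO_7.8 and CTRL_5.6 together it was -0.00023, 1485 genes passed, 255 with the fold, and 5 TRAF and NF-kB genes passed (17.2%, against 13.5% of all genes). With 1 value left out, 1 to 2 receptor events and 186 to 258 events in all were called, in place of 2 and 260. A dispersion prior over all events called 445 events. With the own dispersion of each event, an alternative added after seeing the data, 0 receptor events and 0 events in all were called. The unadjusted p was then 0.022 for Tnfrsf9 exon 7 (difference -12.2 points), 0.0083 for Tnfrsf25 exon 5 (-12.7 points) and 0.0011 for Cd27 exon 3 (5.03 points), and the FDR of each was 0.55. The calls of both exons thus depend on the moderation. With 1 value left out, the difference of the best covered exon ran from -1.06 to 0.64 points in Tnfrsf8 and from -2.00 to 1.79 points in Tnfrsf14. The causes were not tested.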
